A study of Rattus norvegicus with 15 samples.

Results

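A strain difference that does not depend on sound was sought in the inferior colliculus (IC) of Wistar audiogenic rats (WAR) and Wistar rats. The genes described here are those whose WAR arrays all lay on the same side of all Wistar arrays, both in rats exposed to a loud sound and in rats that were not. They number 566 of the 14506 genes measured under a single name, 367 higher and 199 lower in WAR. The largest shared difference was that of the thiamine transporter gene *Slc19a3*, higher in WAR. Several blood vessel genes and genes of other functions, such as *Grifin*, *Mt1* and *Lair1*, followed it. In the vessel genes *Adgrf5*, *Adgrl4* and *Rgs5*, 1 array of unexposed Wistar rats lay near those of unexposed WAR rats. The lowest in WAR were the succinate receptor gene *Sucnr1*, the enzyme genes *Prps1* and *Ephx2*, and *Cmc1*. Markers of endothelial cells and of microglia stood among the higher genes and markers of astrocytes among the lower genes. In a piece of tissue such as the IC, fewer cells of a type and less RNA per cell cannot be told apart.

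The IC is the midbrain relay of the auditory pathway and the place where audiogenic seizures, which are evoked by loud sound, begin. WAR rats were bred from Wistar stock for these seizures, and the question here is which strain differences were there with and without the sound. Brain endothelial cells form the blood-brain barrier and carry nutrients in and drugs out, microglia survey the tissue through purine receptors, and astrocytes take up glutamate and GABA and metabolize lipids and aldehydes.

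RNA from the IC was hybridized to Affymetrix rat gene arrays, and the deposited values are on the log2 scale, so that a difference of 1 is a doubling of the signal. By the label of each array, 5 came from WAR rats exposed to sound (WAR S), 2 from Wistar rats exposed to sound (Wistar S), 4 from naïve WAR rats (WAR N) and 4 from naïve Wistar rats (Wistar N). All rats were males of 12 weeks, and the tissue was taken 60 min after the sound. By the paper, sound was followed by seizures in its stimulated WAR group and by none in its stimulated Wistar group. In the difference between WAR S and Wistar S, strain and seizure therefore cannot be told apart. WAR rats came from a colony of the School of Medicine of Ribeirão Preto and Wistar rats from Charles River, so that strain, breeding colony and housing before the experiment cannot be told apart. The general text of the deposit describes all animals as stimulated, and the methods count other numbers of stimulated rats, so groups were taken from the array labels.

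The stimulated and the naïve arrays were normalized apart. Each of the 21 pairs of stimulated arrays shared 2675 to 3286 identical values, which makes their spread smaller, while the 28 naïve pairs shared 2 to 13 and the 56 mixed pairs 0. Every strain difference was therefore taken within the stimulated or within the naïve arrays, and the mean strain effect is the mean of both differences. Wistar N replicate 1 stood apart from the other 3 arrays of its group. On the first principal component of the naïve arrays, which held 62.8% of their variance, it lay at 23.2, Wistar N replicates 2 to 4 lay between −36.9 and −32.0, and the 4 WAR N arrays lay between 12.7 and 22.7. Wistar N replicate 1 was thus on the side of the WAR N arrays, and results are also given without replicate 1 and without replicates 2 to 4. The first component of the stimulated arrays held 37.3% of the variance. On it the 2 Wistar S arrays lay at −13.2 and −15.5 and the 5 WAR S arrays between −0.707 and 15.8, with no overlap. By the sample numbers in their descriptions, the arrays fall into 2 sets. Among the stimulated arrays, set 2 held only WAR S replicates 3 (9.85) and 4 (15.8). The rest were of set 1, where WAR S replicates 1, 2 and 5 lay at −0.154, −0.707 and 3.92. In the stimulated arrays set and strain thus cannot be fully told apart. Among the naïve arrays, set 1 held WAR N replicates 1 and 2 and Wistar N replicates 1 and 4, and set 2 the others. Neuronal and midbrain genes ranged over the arrays from 12.54 to 13.43 for *Snap25*, 9.70 to 11.12 for *Gad1*, 10.39 to 11.18 for *Gad2*, 7.48 to 9.72 for *Slc32a1*, 10.85 to 12.01 for *Slc17a6*, 7.73 to 8.87 for *Gata3* and 6.40 to 7.09 for *Tfap2b*. Genes that mark forebrain, cerebellum or choroid plexus ranged from 5.12 to 5.49 (*Neurod6*), 6.03 to 7.16 (*Slc17a7*), 4.84 to 6.51 (*Gabra6*), 6.32 to 6.95 (*Pcp2*) and 5.10 to 6.70 (*Ttr*), and the range of *Tfap2b* overlapped some of these. Levels are not comparable between probe sets, so these ranges only describe the tissue. For each gene of forebrain, cerebellum or choroid plexus, all WAR S arrays lay below both Wistar S arrays. The differences were −0.16 (*Neurod6*), −0.55 (*Slc17a7*), −0.68 (*Gabra6*), −0.27 (*Pcp2*) and −0.89 (*Ttr*). Over all genes, 20.7% were separated in the stimulated arrays in either direction. In the naïve arrays each of these genes overlapped. Whether the dissected tissue differed between the groups was not tested. Nothing in the labels pairs arrays across groups, and p-values measure the spread between these arrays only.

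**Figure D1:**
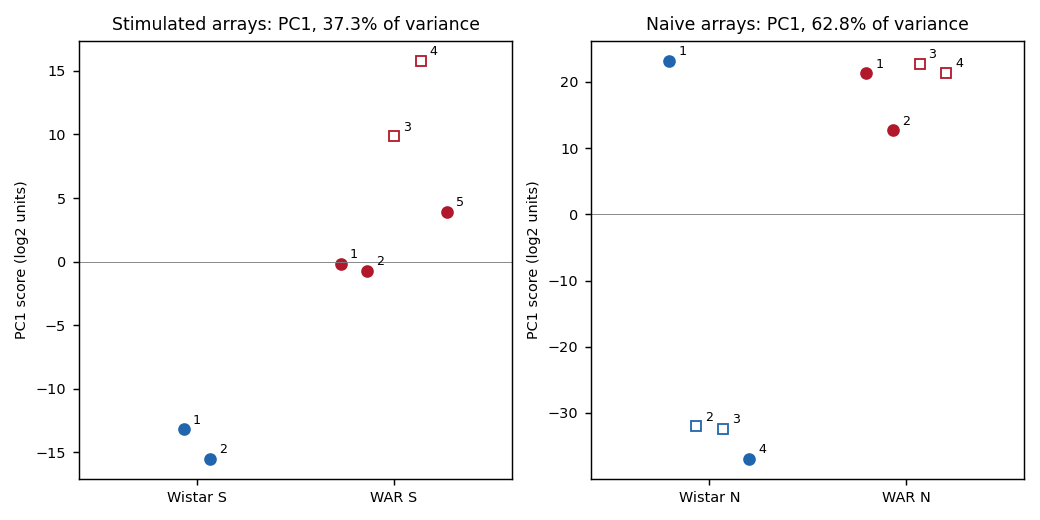
Score of each array on the first principal component, computed within the stimulated arrays (37.3% of the variance) and within the naïve arrays (62.8%). Each symbol is 1 array with its replicate number, filled circles and open squares stand for the 2 sets of sample numbers in the descriptions, and Wistar N replicate 1 (23.2) lies with the WAR N arrays while Wistar N replicates 2 to 4 lie at or below −32.0.

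By limma, 851 genes were higher in WAR (5.87% of the genes tested) and 598 were lower (4.12%) in the mean strain effect at an adjusted p of 0.05. Separation of the arrays in both sets in the same direction was met by 367 genes higher in WAR (2.53%) and by 199 lower (1.37%). Of these, 332 and 192 were also past the limma threshold, which used the same values as the separation and so adds no support. The other 42 separated genes did not pass, and 925 genes passed without being separated. A fold change of at least 2 was reached by 34 of the separated genes that passed, 28 higher and 6 lower in WAR.

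The shared differences were larger in the naïve arrays. Among the 566 genes the median size of the log2 difference was 0.31 between WAR S and Wistar S and 0.56 between WAR N and Wistar N, against 0.07 and 0.16 over all genes. The naïve difference was the larger in 475 of the 566 genes (83.9%), and in 72.3% of all genes. The interaction of strain and sound asks whether the strain difference changes with sound, which in WAR came with a seizure. It was past the limma threshold for 15 genes in all (0.103%) and for 0 of the 566. At an unadjusted p under 0.05 it included 157 of the 566 (27.7%) and 2171 of all genes (15%). The choice of genes excluded opposite directions but not differences in size, and the unadjusted share was above that of all genes. The count of 0 is therefore a description and does not show that these differences are independent of sound. Separated in both sets but in opposite directions were 72 genes (0.496%), 37 of them higher in stimulated WAR, and 4 of these 72 had an interaction past the threshold.

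**Figure D2:**
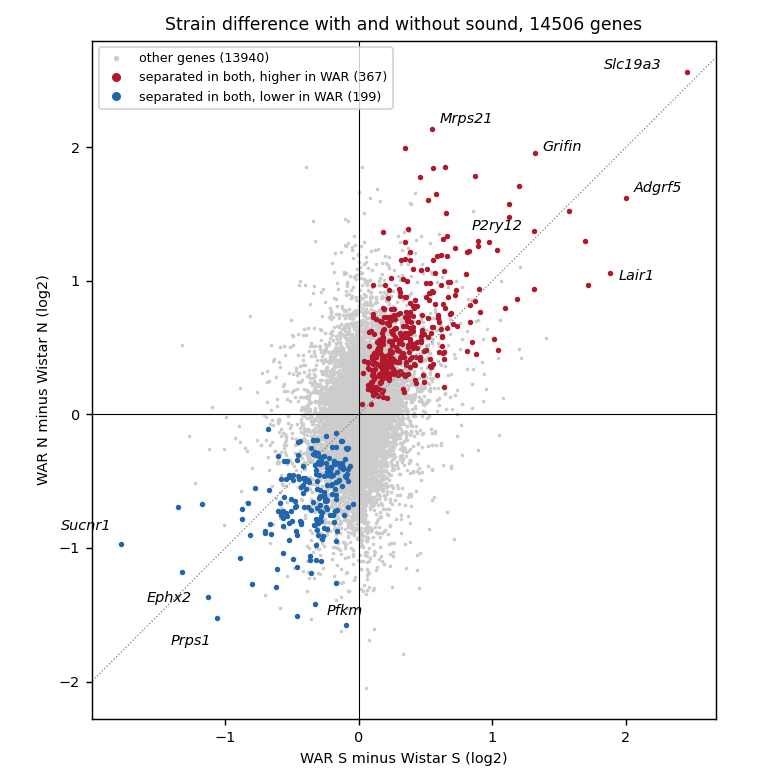
Log2 difference WAR S minus Wistar S on the horizontal axis against WAR N minus Wistar N on the vertical axis, 1 point per gene for 14506 genes, with the genes separated in the same direction in both coloured by direction and a dotted line of equality. The coloured genes lie in the quadrants of equal sign by the rule that chose them, and 475 of the 566 lie farther from 0 on the naïve axis.

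Arrays that the choice did not use give an independent reading. When limma was run on the stimulated arrays alone, 172 genes were higher (1.19%) and 102 lower (0.703%) in WAR. Of these 274 genes, 225 (82.1%) had the same sign in the naïve arrays, where 58.2% of all genes had the same sign in both sets, and 64 (23.4%) were also past the threshold there in the same direction, with 1 gene past it in the opposite direction. Among the 172 higher genes the share called again in the naïve arrays was 23.8%, against 3.24% of all genes called higher there. For the 102 lower genes it was 22.5%, against 2.82% called lower there. Their median difference went from 0.50 to 0.40 for the higher genes and from −0.51 to −0.27 for the lower genes.

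In the other direction, limma on the naïve arrays alone called 470 genes higher and 409 lower. The same sign was seen for 710 of these 879 (80.8%) in the stimulated arrays, and the same 64 genes (7.28%) were called there. The share called was 8.72% of the higher genes, against 1.19% of all genes, and 5.62% of the lower genes, against 0.703%. The median difference fell in size from 0.69 to 0.17 among the higher genes and from −0.68 to −0.10 among the lower genes. Over all 14506 genes the stimulated and naïve differences had a Pearson's r of 0.33 and a Spearman's rho of 0.25, where genes are not independent replicates.

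Probe sets that were not used to choose a gene give a second reading of the same arrays. Of the 566 genes, 21 had other probe sets under the same name, 37 in all. Among these, 36 had the same sign as the probe set used, 29 were past the limma threshold in the same direction (78.4%) and 21 were separated in both sets. Over all genes, 12.1% of other probe sets were past the threshold, without regard to direction. Many of the 37 belonged to a few genes, the ribosomal protein genes *Rpl23a*, *Rpl27*, *Rpl29* and *Rps29* and the interferon gene *Ifna5*, and are not separate checks. Some of the 37 probe sets held the same values as those used, as for *Dpm3* and *Faim*, and are no separate measurement. The exception in sign was the histone gene *Hist1h2ail1*, at 0.70 in the probe set used and −0.10 in another.

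*Slc19a3*, which encodes a thiamine transporter that supplies the brain with vitamin B1, had the largest shared difference. Its log2 values were 8.80, 8.70, 9.11, 8.70 and 9.07 in WAR S against 6.71 and 6.13 in Wistar S, and 8.91, 8.36, 8.53 and 9.10 in WAR N against 7.60, 5.48, 6.08 and 5.48 in Wistar N. Every WAR array was above every Wistar array of its set, and in the naïve set Wistar N replicate 1 was the nearest to WAR. The mean strain effect was 2.51 on the log2 scale (SE 0.28, 95% confidence interval 1.91 to 3.12, limma adjusted p = 0.000278), a fold of 5.70, with 2.46 after sound and 2.57 without. Without Wistar N replicates 2 to 4 it was 1.79 (limma adjusted p = 0.000505). That setting leaves 1 Wistar N array, which is assumed to vary like the arrays of the other groups, so its p-values carry no spread of Wistar N.

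Genes of the vessel wall followed. *Adgrf5* and *Adgrl4* encode adhesion G protein-coupled receptors of endothelial cells. *Adgrf5* had 8.92, 8.84, 9.34, 9.22 and 8.84 in WAR S against 6.98 and 7.09 in Wistar S, and 8.90, 8.70, 8.99 and 9.48 in WAR N against 8.57, 6.99, 6.95 and 7.08 in Wistar N. *Adgrl4* had 8.70, 8.49, 8.75, 8.31 and 8.75 in WAR S, 7.21 and 6.85 in Wistar S, 8.64, 8.25, 8.65 and 8.78 in WAR N and 8.15, 6.93, 6.75 and 6.39 in Wistar N. In both genes the Wistar arrays fell into 2 levels, since Wistar N replicate 1 lay within 0.13 log2 of the lowest WAR N array and the other 5 Wistar arrays lay far below every WAR array of their set. On average over the sets *Adgrf5* was higher by 1.81 (SE 0.23, limma adjusted p = 0.000521) and *Adgrl4* by 1.55 (SE 0.21, adjusted p = 0.00093).

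*Nostrin*, which encodes a protein that moves endothelial nitric oxide synthase off the membrane, did not show that pattern. It had 8.21, 8.32, 8.10, 8.14 and 8.09 in WAR S, 6.96 and 6.76 in Wistar S, 7.86, 7.71, 7.93 and 8.25 in WAR N and 6.69, 6.67, 6.61 and 6.29 in Wistar N. Every Wistar array, replicate 1 included, was at least 1.02 log2 below every WAR array of its set. Its mean strain effect was 1.34 (SE 0.09, limma adjusted p = 1.69e-06), with 1.31 after sound and 1.37 without. *Itm2a*, a membrane protein gene expressed in brain endothelium, had 9.78, 9.94, 10.38, 9.91 and 9.86 in WAR S against 8.35 and 8.17 in Wistar S, and 9.94, 9.73, 9.83 and 10.26 in WAR N against 9.23, 8.92, 8.73 and 9.01 in Wistar N. Here too the groups did not overlap, by 1.43 in the stimulated and 0.50 in the naïve arrays, and the mean effect was 1.34 (SE 0.11, adjusted p = 1.84e-05).

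Of the pericyte markers, *Rgs5*, a regulator of G protein signalling, was separated. It had 11.38, 11.28, 11.69, 11.42 and 11.23 in WAR S against 10.32 and 10.08 in Wistar S, and 11.41, 11.21, 11.58 and 11.69 in WAR N against 11.00, 9.36, 9.49 and 9.20 in Wistar N. Wistar N replicate 1 was close to the WAR N arrays and far above the rest of its group. The mean strain effect of 1.46 (limma adjusted p = 0.002) was 0.84 without Wistar N replicates 2 to 4 (adjusted p = 0.00233).

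Of the efflux pumps of the barrier, which return drugs to the blood, *Abcb1a* and *Abcg2* were among the separated genes. *Abcb1a*, which encodes P-glycoprotein, had 8.31, 8.31, 8.74, 8.38 and 8.31 in WAR S against 7.23 and 7.22 in Wistar S, and 8.38, 8.24, 8.66 and 8.99 in WAR N against 7.96, 7.51, 7.64 and 7.72 in Wistar N. *Abcg2*, which encodes the breast cancer resistance protein, had 7.74, 7.96, 7.92, 7.52 and 7.63 in WAR S, 7.17 and 6.87 in Wistar S, 7.56, 7.60, 7.67 and 7.90 in WAR N and 6.54, 7.08, 6.60 and 6.78 in Wistar N. All WAR arrays were above all Wistar arrays for both pumps. The mean effect was 1.02 for *Abcb1a* (SE 0.12, limma adjusted p = 0.000282) and 0.83 for *Abcg2* (SE 0.10, adjusted p = 0.000439). Of 29 measured genes of the efflux and ABC transporter family, 5 were higher (17.2%) and 2 lower (6.90%) in WAR by limma, and 2 were separated. Over all genes 5.87% were higher, 4.12% lower and 3.90% separated. The median difference of the family was 0.02, beside 0.02 for all genes. In this family *Abcc4* was called higher (0.37) but overlapped in the naïve arrays, and *Abcb8* was called lower (−0.38).

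**Figure D3:**
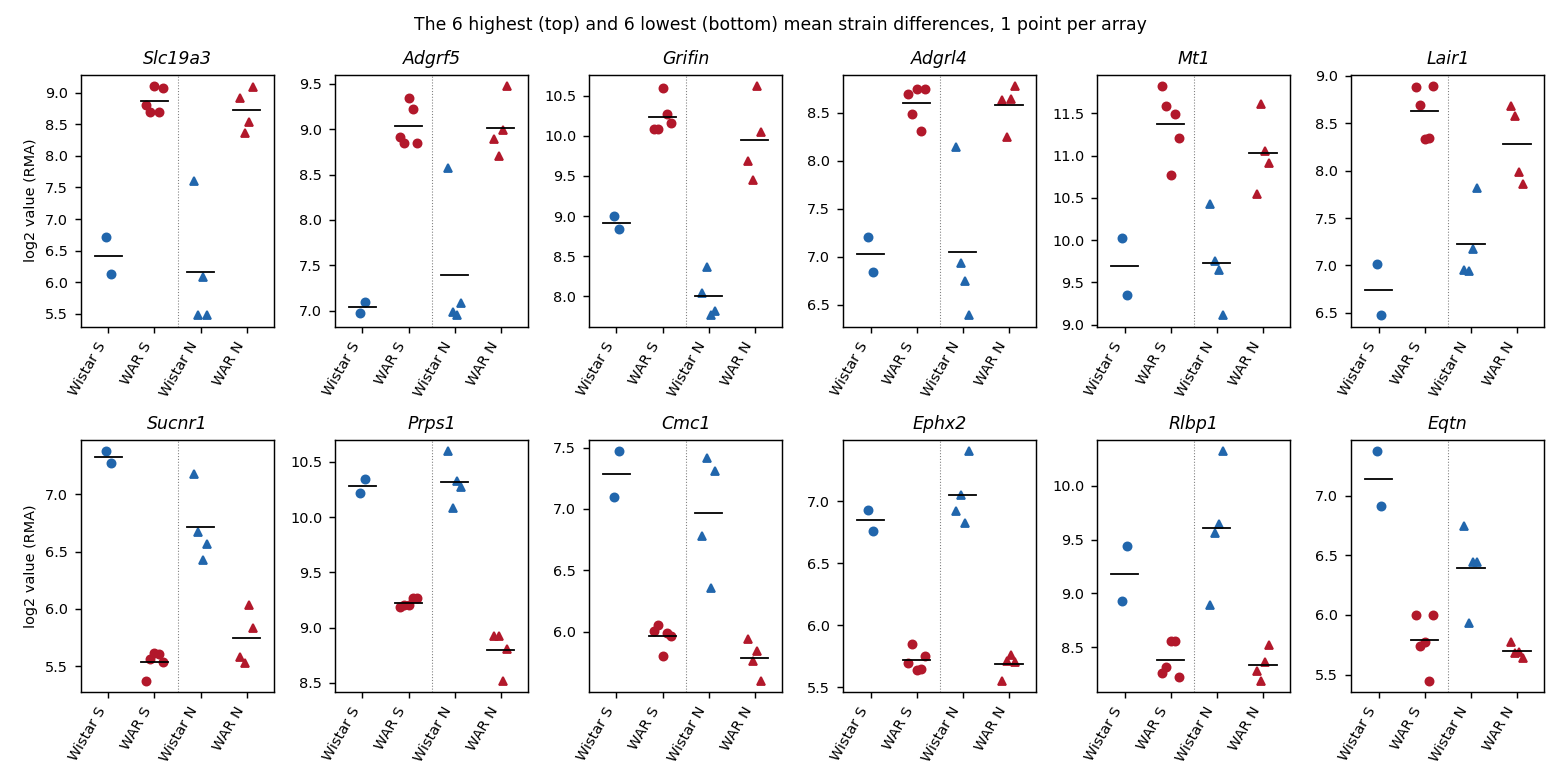
Log2 value of each array for the 6 highest and 6 lowest mean strain effects among the separated genes that passed the threshold, 1 panel per gene, with circles for stimulated and triangles for naïve arrays, WAR in red, Wistar in blue and a bar at the group mean. Within the stimulated and within the naïve arrays WAR and Wistar points do not overlap in any panel, and in *Slc19a3*, *Adgrf5* and *Adgrl4* the highest Wistar N point (7.60, 8.57 and 8.15) is replicate 1.

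Over all genes 5.87% were higher, 4.12% lower and 3.90% separated, and each list is read beside these shares. As a list, 32 endothelial markers were measured. By limma 16 were higher and 0 lower in WAR, 29 of the 32 had a positive mean effect, and 10 were separated in both sets, the genes above except *Rgs5* with *Egfl7*, *Ocln* and *Tek*. *Tek* encodes the angiopoietin receptor Tie2 (mean effect 0.94), *Egfl7* a secreted vessel factor (0.83) and *Ocln* the tight junction protein occludin (0.76). The median difference of the list was 0.57, with 0.52 after sound and 0.61 without, beside 0.02 for all genes. Across the alternative settings this median ran from 0.22, without Wistar N replicates 2 to 4, to 0.75, without Wistar N replicate 1, with 11 and 25 genes higher and 0 and 1 lower. The number higher was lowest, at 6, with sample number set 1 alone. The list was written with earlier results of these arrays known, and in the 26 markers not named in those results 10 were higher and 0 lower, with a median of 0.44, and 2 were higher with sample number set 1 alone. After sound the mean level of the list was 8.17 to 8.55 in WAR against 7.59 to 7.65 in Wistar arrays, and without sound 8.06 to 8.47 against 7.38 to 8.19, so the naïve groups overlapped. Of 17 pericyte and smooth muscle markers 6 were higher and 0 lower, with a median of 0.12. Without Wistar N replicates 2 to 4 the median was −0.0043 with 1 gene higher, and with the arrays of sample number set 1 alone it was −0.00043 with 0 higher.

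Of all genes, the microglial gene *P2ry12* had the smallest limma p, which used the values that chose it and adds no support. The other microglial genes named here had a larger p than *Prps1*, *Ephx2* and *Nostrin*. *P2ry12*, the purine receptor by which microglia sense ATP and ADP, had 10.08, 10.03, 9.95, 10.04 and 10.05 in WAR S against 9.19 and 9.09 in Wistar S, and 9.98, 10.02, 9.95 and 9.94 in WAR N against 8.67, 8.59, 8.96 and 8.63 in Wistar N. The WAR arrays lay close together in both sets, and all Wistar arrays were lower by at least 0.75 log2. The mean strain effect was 1.07 (SE 0.06, limma adjusted p = 5e-07), with 0.89 after sound and 1.26 without, and it was 1.10 without Wistar N replicates 2 to 4.

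*P2ry13*, a related purine receptor, had 9.04, 8.96, 8.93, 8.91 and 8.81 in WAR S, 8.56 and 8.24 in Wistar S, 9.04, 8.91, 8.93 and 8.93 in WAR N and 8.46, 7.79, 7.97 and 7.95 in Wistar N, a mean effect of 0.72 (SE 0.09, limma adjusted p = 0.000525). Its WAR arrays were also close together and above every Wistar array. *Lair1*, an inhibitory collagen receptor of immune cells, had 8.88, 8.69, 8.33, 8.34 and 8.89 in WAR S, 7.02 and 6.47 in Wistar S, 8.68, 8.58, 7.98 and 7.86 in WAR N and 6.95, 6.94, 7.18 and 7.82 in Wistar N. The groups met in the naïve arrays, where WAR N replicate 4 and Wistar N replicate 4 differed by only 0.04. The mean effect of *Lair1* was 1.47 (SE 0.18, limma adjusted p = 0.000453). *Tyrobp*, the signalling adaptor of *Trem2*, had 8.72, 8.75, 9.06, 9.30 and 8.99 in WAR S, 8.37 and 8.28 in Wistar S, 8.57, 8.36, 9.16 and 8.93 in WAR N and 7.64, 6.87, 6.54 and 6.55 in Wistar N. The separation was wider without sound, and the mean effect was 1.25 (SE 0.18, adjusted p = 0.00114).

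Also separated and higher in WAR were the microglial receptor gene *Trem2* (mean effect 0.92) and the complement gene *C1qb* (0.54). In the list of 24 microglial and macrophage markers, 7 were higher and 0 lower by limma, 6 were separated and 21 had a positive mean effect. Its median difference was 0.17, from 0.15 to 0.21 across the alternatives, and its mean level was 7.94 to 8.15 in WAR against 7.71 to 7.81 in Wistar arrays after sound and 7.88 to 7.90 against 7.42 to 7.54 without, with no overlap in either set. In the 22 markers not named in earlier results, 5 were higher and 0 lower. With sample number set 1 alone the calls fell to 2 of the 24 and 0 of the 22. Among 27 genes of complement and innate sensing, 10 were higher and 2 lower with a median of 0.21, and 4 were separated, *C1qb*, *C7* (0.37) and *Ifit3* (0.47) higher and the protease gene *C1s* lower (−0.43).

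The metallothionein genes *Mt1* and *Mt2A*, which encode small proteins that bind zinc and copper, lie next to each other on chromosome 19 and were both higher in WAR. *Mt1* had 11.82, 11.59, 10.77, 11.49 and 11.21 in WAR S against 10.03 and 9.35 in Wistar S, and 10.54, 11.62, 11.06 and 10.91 in WAR N against 10.42, 9.76, 9.65 and 9.11 in Wistar N. Its arrays did not overlap, by only 0.12 in the naïve set, where the highest Wistar value was that of replicate 1. *Mt2A* had 13.41, 13.26, 13.06, 13.13 and 13.54 in WAR S against 13.06 and 12.81 in Wistar S, and 13.20, 13.22, 13.22 and 13.06 in WAR N against 12.76, 10.81, 10.53 and 10.61 in Wistar N. The stimulated groups of *Mt2A* nearly touched, at 13.06 in both, while 3 of the 4 Wistar N arrays were far lower. The mean strain effect was 1.49 for *Mt1* (SE 0.23, limma adjusted p = 0.0017) and 1.17 for *Mt2A* (SE 0.28, adjusted p = 0.0189). A further probe set of each gene had the same sign and was separated as well, with mean effects of 1.58 and 1.47. Metallothionein copies are alike in sequence, and signal shared between their probes was not tested.

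Metallothionein promoters are known for metal response elements, to which the zinc sensor MTF-1 binds. The 250 bases before the start of each gene are shown because these 2 neighbours were higher together, from RefSeq on the rat assembly GRCr8, minus strand, chr19:10832976-10833225 for *Mt1* and chr19:10838709-10838958 for *Mt2A*, written 5′ to 3′. Capitals mark matches on either strand to the core letters TGCACNC or TGCGCNC, where N is any base.
Mt1: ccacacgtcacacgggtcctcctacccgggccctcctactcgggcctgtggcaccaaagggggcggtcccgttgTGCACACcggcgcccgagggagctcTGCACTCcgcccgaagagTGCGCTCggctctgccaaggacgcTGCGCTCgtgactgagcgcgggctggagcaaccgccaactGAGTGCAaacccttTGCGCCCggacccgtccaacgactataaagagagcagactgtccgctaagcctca
Mt2A: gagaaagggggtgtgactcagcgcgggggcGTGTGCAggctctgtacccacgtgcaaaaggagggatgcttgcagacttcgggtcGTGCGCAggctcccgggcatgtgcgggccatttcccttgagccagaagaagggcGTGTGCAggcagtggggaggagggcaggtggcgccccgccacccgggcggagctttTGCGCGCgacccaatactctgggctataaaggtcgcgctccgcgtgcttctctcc
The *Mt1* promoter held 6 such cores and the *Mt2A* promoter 4, none of them overlapping. Of 33469 rat promoters of this length, 20.6% held at least 1 core, 89 (0.266%) at least 4 and 9 (0.0269%) at least 6. A match of letters is a description of the sequence, and binding was not measured.

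Other high members come from different functions. *Grifin*, a galectin-related gene first known from the lens, had 10.08, 10.08, 10.59, 10.27 and 10.15 in WAR S, 9.00 and 8.84 in Wistar S, 9.69, 9.45, 10.62 and 10.05 in WAR N and 8.05, 8.37, 7.76 and 7.82 in Wistar N. WAR and Wistar arrays were about 1 log2 or more apart in both sets, and Wistar N replicate 1 lay with its group. The mean effect was 1.63 (SE 0.16, limma adjusted p = 0.000131). *Sgms2* (mean effect 1.35) and *Acer2* (1.33) encode enzymes of sphingolipid metabolism, sphingomyelin synthase and a ceramidase. In both, Wistar N replicate 1 (7.43 and 8.85) was far above the rest of its group, and without Wistar N replicates 2 to 4 the mean effect of *Acer2* was 0.69 and no longer passed (limma adjusted p = 0.121).

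Genes of the mitochondrion were also among the separated genes. *Mrps21*, a protein of the mitochondrial ribosome, had 11.24, 11.23, 11.41, 11.73 and 11.69 in WAR S, 10.98 and 10.84 in Wistar S, 11.51, 11.06, 11.58 and 11.41 in WAR N and 11.05, 8.88, 8.17 and 8.94 in Wistar N. The size of its mean effect, 1.34 (SE 0.33, limma adjusted p = 0.0217), came from 3 Wistar N arrays, and without them it was 0.44 (adjusted p = 0.0621). *Cox8a*, a subunit of cytochrome c oxidase, had a mean effect of 0.80 with the same low Wistar N arrays (11.59, 11.52 and 10.71 against 12.59 in replicate 1), while *Cox6a1* had 0.44 with Wistar N arrays between 12.08 and 12.17. Of 33 measured subunits of complex I, 9 were higher and 1 lower in WAR by limma with a median difference of 0.22 (0.13 after sound and 0.39 without), and the 4 separated ones were *Ndufa3*, *Ndufab1*, *Ndufb4* and *Ndufs5*, all higher by 0.44 to 0.58. With sample number set 1 alone 1 subunit was higher and 0 lower, and with array weights 19 and 7. Of 35 subunits of complexes II to V, 6 were higher and 2 lower with a median of 0.10. These are 17.1% and 5.71%, beside 5.87% higher and 4.12% lower over all genes. Of 67 cytosolic ribosomal proteins, 17 were higher (25.4%) and 1 lower (1.49%) with a median of 0.06, and without Wistar N replicate 1 they were 23 and 19.

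Among the lower genes, the smallest p belonged to *Prps1* and *Ephx2*. *Ephx2*, which encodes the soluble epoxide hydrolase that breaks down epoxides of arachidonic acid, had 5.69, 5.85, 5.64, 5.65 and 5.75 in WAR S against 6.93 and 6.76 in Wistar S, and 5.55, 5.71, 5.76 and 5.71 in WAR N against 6.92, 7.05, 6.82 and 7.40 in Wistar N. All WAR arrays were 0.91 or more below all Wistar arrays of their set, with replicate 1 of Wistar N among its group. Its mean strain effect was −1.25 (SE 0.08, limma adjusted p = 1.69e-06), a fold of 0.421.

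*Prps1*, which encodes the enzyme that makes phosphoribosyl pyrophosphate for nucleotide synthesis, had 9.18, 9.20, 9.20, 9.27 and 9.27 in WAR S, 10.22 and 10.35 in Wistar S, 8.93, 8.93, 8.52 and 8.80 in WAR N and 10.60, 10.08, 10.33 and 10.28 in Wistar N. The gap between the strains was 0.95 in the stimulated and 1.15 in the naïve arrays, and the mean effect was −1.29 (SE 0.08, limma adjusted p = 1.69e-06). *Sucnr1*, the receptor for succinate, had the lowest mean effect, −1.38 (SE 0.11, adjusted p = 1.48e-05), a fold of 0.386. Its values were 5.38, 5.56, 5.62, 5.60 and 5.54 in WAR S, 7.37 and 7.27 in Wistar S, 5.58, 5.53, 6.03 and 5.84 in WAR N and 7.18, 6.67, 6.43 and 6.57 in Wistar N. The groups were farther apart after sound (−1.78) than without (−0.97), and in the naïve set Wistar N replicate 1 was the farthest from WAR. *Cmc1*, a gene for assembly of cytochrome c oxidase, had 6.01, 6.05, 5.80, 5.98 and 5.96 in WAR S, 7.10 and 7.47 in Wistar S, 5.94, 5.76, 5.84 and 5.60 in WAR N and 6.78, 7.42, 6.36 and 7.31 in Wistar N. Its groups did not overlap, and the mean effect was −1.25 (SE 0.14, limma adjusted p = 0.000278). In every WAR array *Ephx2*, *Sucnr1* and *Cmc1* were below the array medians, which ran from 7.01 to 7.27. How far these values lie above background is not known.

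Enzymes that clear aldehydes and other reactive compounds were divided. *Aldh2*, the mitochondrial aldehyde dehydrogenase, had 7.45, 7.80, 8.00, 8.03 and 7.66 in WAR S, 8.37 and 8.45 in Wistar S, 7.42, 7.43, 8.10 and 7.77 in WAR N and 8.71, 9.07, 8.97 and 9.13 in Wistar N. Every WAR array was lower than every Wistar array of its set, and the mean effect was −0.95 (SE 0.12, limma adjusted p = 0.000623). Also separated and lower were *Aldh1l1*, *Aldh5a1*, which encodes the dehydrogenase of the GABA breakdown pathway, *Cyp2d4* and *Ephx2*, while the aldo-keto reductase gene *Akr1c19* was separated and higher (0.35). In this list of 41 genes 10 were lower (24.4%) and 6 higher (14.6%) in WAR by limma, and the median was −0.03. Over all genes 4.12% were lower and 5.87% higher. Other low members were *Pfkm*, the muscle type of phosphofructokinase of glycolysis (−0.32 after sound, −1.42 without, interaction adjusted p = 0.0514 by limma), *Atp1b2*, a sodium pump subunit (mean effect −0.89), the phosphatase activator *Ptpa* (−0.86), the retinaldehyde-binding protein *Rlbp1* (−1.03), the matrix protease *Mmp14* (−0.99) and the hyaluronidase *Hyal1* (−0.98).

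Astrocyte markers were lower in WAR. *Slc6a11*, the GABA transporter GAT-3 of astrocytes, had 11.21, 11.09, 11.86, 11.51 and 11.02 in WAR S, 12.21 in both Wistar S arrays, 11.14, 10.91, 11.08 and 11.70 in WAR N and 11.80, 12.04, 12.32 and 11.81 in Wistar N. The strains were separated in both sets, by 0.10 log2 in the naïve arrays, with WAR S replicate 3 and WAR N replicate 4 the highest WAR arrays. The mean effect was −0.83 (SE 0.15, limma adjusted p = 0.00448). *Aldh1l1*, the folate enzyme used as a pan-astrocyte marker, had 8.46, 8.50, 8.65, 8.82 and 8.29 in WAR S, 9.18 and 9.07 in Wistar S, 8.19, 8.49, 8.25 and 8.37 in WAR N and 9.09, 8.77, 8.91 and 9.55 in Wistar N. Within each set no WAR array reached a Wistar array, and the mean effect was −0.67 (SE 0.12, adjusted p = 0.00346). The lipid genes *Plpp3* (−0.62) and *Acsbg1* (−0.59) and the glutamate transporter *Slc1a3* (−0.49) were also separated and lower.

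Over the list of 18 astrocyte markers, 8 were lower and 0 higher in WAR by limma, 17 had a negative mean effect, and the median was −0.36, with −0.26 after sound and −0.43 without. The median stayed between −0.40 and −0.29 across the alternatives. In the 16 markers not named in earlier results, 6 were lower and 0 higher. After sound its mean level was 10.76 to 10.99 in WAR against 11.19 to 11.24 in Wistar arrays, and without sound 10.59 to 10.79 against 10.97 to 11.16. By contrast, 17 neuronal markers had 0 higher and 1 lower (5.88%) with a median of 0.08. The 19 markers of oligodendrocytes and myelin had 0 higher and 2 lower (10.5%) with a median of 0.01. Of these, *Pdgfra*, the receptor of oligodendrocyte precursors, was separated (−0.57). Over all genes 5.87% were higher and 4.12% lower. How far a change in the share of cell types enters any single gene was not tested.

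Red blood cells left in the vessels carry their own RNA. *Hbb*, which encodes β-globin, had 10.06, 9.95, 9.97, 9.99 and 9.87 in WAR S, 10.90 and 11.37 in Wistar S, 10.03, 9.55, 10.33 and 10.04 in WAR N and 10.52, 11.15, 10.49 and 10.48 in Wistar N. It was lower in WAR with no overlap, while endothelial markers were higher, and the mean effect was −0.92 (SE 0.13, limma adjusted p = 0.00114). Of 10 red blood cell markers 2 were lower and 0 higher, with a median of −0.04, and its mean level was 6.43 to 6.51 in WAR against 6.73 to 6.92 in Wistar arrays after sound and 6.35 to 6.62 against 6.50 to 6.79 without.

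**Figure D4:**
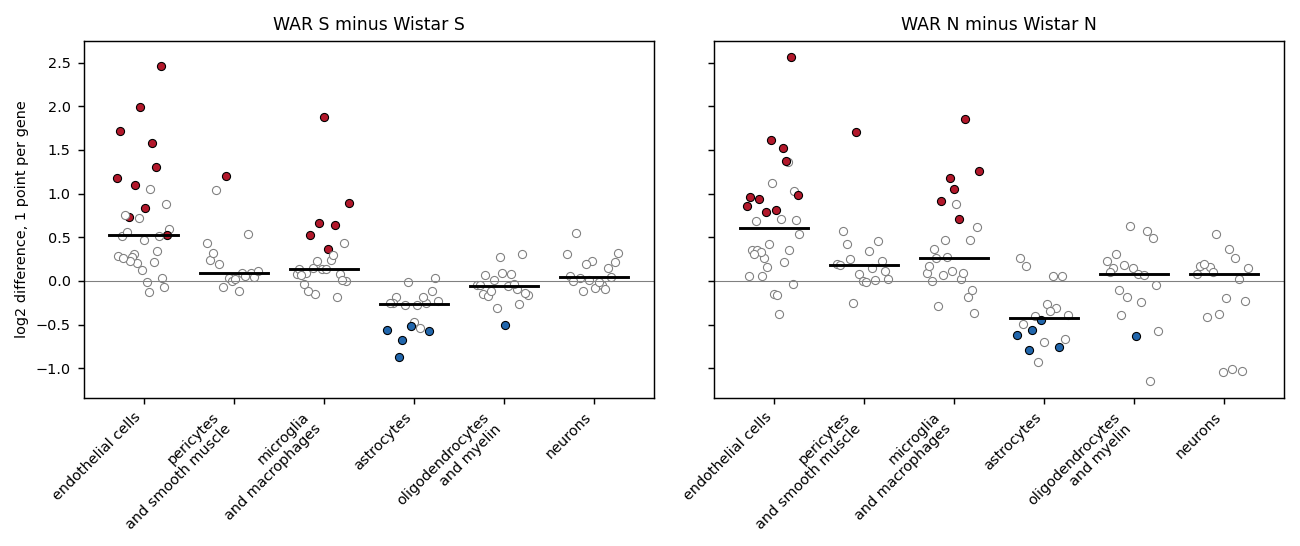
Log2 difference WAR minus Wistar of each marker gene in 6 lists of cell types, in stimulated arrays in 1 panel and naïve arrays in the other, with filled points for genes separated in both sets and a bar at the list's median. The bar lies above 0 for endothelial cells (0.52 and 0.61) and microglia (0.14 and 0.26) and below 0 for astrocytes (−0.26 and −0.43) in both panels.

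Some separated genes act in synaptic transmission. They are named here after their values were seen, without a list behind them. *Gpr139*, an orphan receptor of the habenula and midbrain that responds to aromatic amino acids, had 8.57, 8.41, 8.41, 8.77 and 8.62 in WAR S, 7.79 and 7.54 in Wistar S, 8.78, 8.40, 8.50 and 8.45 in WAR N and 8.15, 7.07, 6.79 and 6.95 in Wistar N. It was higher in every WAR array, with a mean effect of 1.09 (SE 0.17, limma adjusted p = 0.00216). *Gabrq*, the θ subunit of the GABA-A receptor, had 6.51, 6.32, 6.45, 7.41 and 6.78 in WAR S, 5.91 and 5.79 in Wistar S, 6.25, 6.38, 6.08 and 6.15 in WAR N and 5.93, 5.25, 5.69 and 5.81 in Wistar N. It was higher in WAR with a mean effect of 0.70 (SE 0.16, adjusted p = 0.014), and WAR S replicate 4 was its highest array.

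*Slc6a5*, the neuronal glycine transporter GlyT2, was higher by 0.45 (SE 0.07, limma adjusted p = 0.00263). Lower in WAR were *Glud1*, glutamate dehydrogenase (−0.79), *Grin2c*, an NMDA receptor subunit (−0.44), *Dlg4*, the postsynaptic scaffold PSD-95 (−0.47), and *Syp*, the vesicle protein synaptophysin (−0.37). For *Glud1* the values were 11.12, 11.18, 11.22, 11.12 and 11.17 in WAR S, 11.84 and 11.89 in Wistar S, 10.86, 11.05, 10.78 and 10.76 in WAR N and 11.37, 11.79, 11.93 and 11.86 in Wistar N. All WAR arrays of *Glud1* were lower than the Wistar arrays. The neighbouring nicotinic receptor genes *Chrna5* and *Chrna3* were also separated and lower (−0.32 and −0.33), the latter without passing the threshold (limma adjusted p = 0.0642). In the list of 37 ion channel and receptor genes of inherited epilepsies, 1 was lower and 0 higher by limma, and 0 were separated. Of 37 neuropeptide genes, 5 were higher and 0 lower, and 0 were separated. Of 40 immediate early genes, which rise within an hour of strong activity, 3 were higher and 2 lower, and *Jun* was the 1 separated gene (−0.44, with −0.27 after sound and −0.61 without). Over all genes 5.87% were higher, 4.12% lower and 3.90% separated. The shares were 7.5% higher and 5% lower for immediate early genes, 13.5% higher for neuropeptides and 2.70% lower for epilepsy genes. Those of the immediate early genes were thus near the shares of all genes.

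No list of circadian clock genes was fixed, and *Per3*, *Bmal1* and *Clock* are named after their values were seen, so no share of clock genes can be read from them. The repressor gene *Per3* had 9.68, 9.75, 9.68, 9.78 and 9.68 in WAR S, 9.48 and 9.33 in Wistar S, 9.61, 9.53, 9.53 and 9.47 in WAR N and 8.94, 8.34, 8.79 and 8.51 in Wistar N. It was higher in the WAR arrays of each set, with a mean effect of 0.60 (SE 0.08, limma adjusted p = 0.000839). The activator genes went opposite ways, *Bmal1* lower (−0.45) and *Clock* higher (0.21). No hour of tissue collection is given in the labels.

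The size of a naïve difference depended on which Wistar N arrays it was read against. Over the 566 genes, the median size of the difference between the WAR N mean and Wistar N was 0.36 against replicate 1 and 0.61 against replicates 2 to 4, beside 0.17 and 0.20 over all genes. Of the vessel genes, *Adgrf5* differed by 0.44 against replicate 1 and by 2.01 against the others, *Adgrl4* by 0.43 and 1.89, and *Rgs5* by 0.47 and 2.12. *Grifin* (1.91 and 1.97), *Nostrin* (1.25 and 1.41), *P2ry12* (1.30 and 1.24), *Ephx2* (−1.23 and −1.41) and *Atp1b2* (−1.16 and −1.16) hardly depended on the array. *Prps1* (−1.80 and −1.43), *Sucnr1* (−1.43 and −0.81) and *Lair1* (1.33 and 0.97) were farther from replicate 1 than from the rest.

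Leaving out Wistar N replicate 1 raised the number of genes separated in both sets to 1093, of which 527 were not separated with it, and the genes called in the mean strain effect from 1449 to 4264. With fewer arrays the number of separated genes can only stay or rise, so the direction of that change was fixed in advance. Leaving out Wistar N replicates 2 to 4 instead gave 1308 separated and 1580 called genes, and 363 of the 566 were called. Across all genes the naïve difference correlated with the stimulated difference about equally whether it was taken against replicate 1 (Pearson's r 0.27) or against replicates 2 to 4 (0.29), where genes are not independent and the WAR N arrays are shared.

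**Figure D5:**
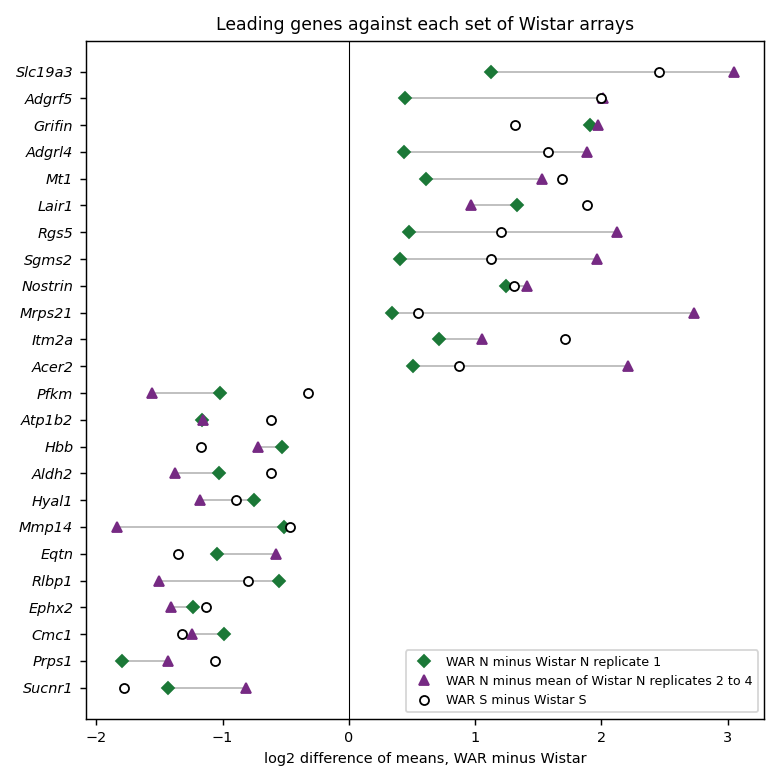
Log2 difference for the 24 leading genes, with a green diamond for WAR N minus Wistar N replicate 1, a purple triangle for WAR N minus the mean of Wistar N replicates 2 to 4 and an open circle for WAR S minus Wistar S. All points of a gene lie on the same side of 0, and the diamond and triangle are far apart for *Mrps21* (0.34 and 2.73) and close for *Grifin* (1.91 and 1.97).

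Of the 5 genes taken to RT-qPCR, *Abcb1a* alone was separated in both sets. The paper's RT-qPCR, in other rats, found all 5 higher in naïve WAR than in naïve Wistar rats. The paper proposes that the higher *Npy*, *Rgs2* and *Ttr* are intrinsic to the strain. In the naïve arrays *Egr3*, an activity-induced transcription factor, had 7.16, 7.35, 7.31 and 7.55 in WAR N against 7.91, 7.68, 7.36 and 7.04 in Wistar N, and *Rgs2*, a regulator of G protein signalling, had 8.99, 9.17, 9.17 and 9.29 against 8.93, 9.35, 9.16 and 8.97. These groups overlapped, and the naïve differences were −0.16 for *Egr3* and 0.05 for *Rgs2*, beside 1.05 and 0.85 after sound. *Npy*, which encodes neuropeptide Y, had 9.67, 10.13, 9.57 and 9.83 in WAR N against 10.05, 9.50, 9.56 and 8.90 in Wistar N, a difference of 0.30 (0.94 after sound). *Ttr*, which encodes transthyretin, had 5.43, 5.31, 5.26 and 5.32 against 6.50, 5.17, 5.37 and 5.10, so that its naïve difference of −0.21 came from replicate 1 of Wistar N. By limma on the naïve arrays alone, *Egr3*, *Rgs2*, *Npy* and *Ttr* were not called. For *Egr3* and *Ttr* the sign was opposite to that of the paper's RT-qPCR.

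Averaged over both sets, the mean effect of *Egr3* was 0.45 (exact permutation test, two-sided, p = 0.0463), of *Rgs2* 0.45 (exact p = 0.0156), of *Npy* 0.62 (exact p = 0.00748) and of *Ttr* −0.55 (exact p = 0.0218). The test took all 1470 arrangements of the strain labels within the sets, and its p-values are not adjusted. It is not given for *Abcb1a*, since a gene separated in both sets has the smallest p by the way it was chosen. By limma over all genes the mean effect of *Ttr* did not pass the threshold (adjusted p = 0.0723). Those of *Egr3* (limma adjusted p = 0.0312), *Rgs2* (0.0109) and *Npy* (0.0213) passed it. By the paper, *Egr3*, *Rgs2* and *Ttr* were taken for their change in the stimulated arrays and in a hamster model, and *Npy* and *Abcb1a* from earlier results in WAR, so these p-values are not independent evidence. The interaction of strain and sound was past the limma threshold for none of the 4 others (adjusted p 0.0637 for *Egr3*, 0.11 for *Rgs2*, 0.342 for *Npy* and 0.395 for *Ttr*). *Actb* and *Gapdh*, used as reference genes in many assays, had mean effects of 0.04 each and were not called.

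Neighbouring genes were looked at through the gene order of the assembly GRCr8. Of 565 separated genes with a place, 51 (9.03%) lay next to another separated gene among the measured genes, beside 7.63% of all measured genes. They formed 27 pairs, 11 with both genes higher, 6 with both lower and the rest in opposite directions. Besides *Mt1* with *Mt2A*, the pairs with both higher included *P2ry13* with *P2ry12* and *Krtcap2* with *Dpm3* on chromosome 2, which encode subunits of glycosylation enzymes (1.01 and 1.12). On chromosome 5, *Tek* (0.94) lay next to *Eqtn* (−1.02), a gene of sperm, and on chromosome 13 the Fc receptor chain gene *Fcer1g* (1.13) next to the protease gene *Adamts4* (−0.64). *Eqtn* had 6.00, 5.74, 5.77, 5.45 and 6.00 in WAR S, 7.37 and 6.91 in Wistar S, 5.77, 5.68, 5.69 and 5.64 in WAR N and 6.75, 5.94, 6.45 and 6.44 in Wistar N, with no overlap within a set. Its WAR values were also below the array medians. The share of measured genes that were separated ran from 2.48% on chromosome 3 to 5.60% on chromosome 16, leaving aside chromosome Y with 0 of 2 genes.

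Close to the line between separated and overlapping genes the values are nearly equal. Just inside lay *Ifna5*, *Enpep* and *Dnase1l1*, whose WAR and Wistar arrays were 7.29e-06 to 0.000252 log2 apart in the stimulated set, and just outside lay *Abcb8*, *Adora2b* and *Ahsg*, which shared a tied value between the strains there. Of the 13581 probe sets without a gene name, 313 (2.30%) were separated in both sets in the same direction.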

How the data were processed

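Gene expression came from 15 Affymetrix arrays of rat IC, grouped by label into WAR S (5), Wistar S (2), WAR N (4) and Wistar N (4). Values deposited by the authors are log2 signals after RMA (background correction, quantile normalization and a summary of the probes of each probe set), whose version and genome build were not given in the sources used here. All probe sets had a value in every array, and 0 sample columns went unused. Signal over background is unknown in processed values, so precision is limited by how many arrays there are.

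Of 29214 probe sets, 15310 carried 1 gene symbol in the platform's annotation, 323 several and 13581 none. By gene ID 15279 matched the RefSeq table of GRCr8, and 0 symbols were updated. In 527 genes several probe sets shared the symbol, and the brightest by mean was used, so that 14506 genes were tested.

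A gene was called separated when all WAR arrays lay above, or all below, the Wistar arrays in the stimulated set and in the naïve set in the same direction. Equal values counted as overlap. The mean strain effect and the interaction were fitted with limma 3.58.1 in R 4.3.3 (4 group means, eBayes, Benjamini-Hochberg over all genes, threshold 0.05), a step tested on simulated data. Separate fits on the stimulated and on the naïve arrays gave the genes read in the other set. Strain labels were permuted within sets for the exact permutation test of single genes. Lists are described by counts and medians, with no set test.

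The genes and lists were chosen with earlier results of these data known. Named are the 12 highest and 12 lowest mean strain effects among separated and called genes, the 5 genes of the RT-qPCR, *Actb* and *Gapdh*, up to 4 genes of each list, neighbouring pairs and the genes nearest to the limit. Further separated members of a list, *Gpr139*, *Gabrq*, *Glud1*, *Grin2c*, *Dlg4*, *Syp* and the clock genes were named after their values were seen.

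Alternatives were an additive model, the replicate number or the set of sample numbers as a block, 1 such set alone, the dimmest 25% of genes left out, all or averaged probe sets, trend and robust options of eBayes, median centring, cyclic loess, array weights, another threshold and each array left out. Leaving out Wistar N replicates 2 to 4 was added after seeing the data. No label says that replicate numbers pair the arrays. The correlation of the deviations of arrays with the same number ran from −0.31 to 0.06. These few values come from small groups and cannot exclude a pairing.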

Additional observations from a re-analysis of the deposited data

Results flagged for a closer look

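In groups of 4 or 5 arrays, a single array was set against the rest of its group by the share of the group's range that separates it from its nearest neighbour (Dixon's ratio). Chance alone passes the 95% limit in about 1 in 20 groups, 210 groups of 70 named genes were looked at, and no cause was tested for any of them.

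Wistar N replicate 1 was the array concerned for the first principal component of the naïve arrays (ratio 0.918, 23.2 against −36.9 to −32.0) and for 4 of the genes highest in WAR. These were *Adgrf5* (0.918, 8.57 against 6.95 to 7.08), *Sgms2* (0.928, 7.43 against 5.81 to 5.93), *Acer2* (0.856, 8.85 against at most 7.26) and *Rgs5* (0.840, 11.00 against 9.20 to 9.49). In each it lay nearer to WAR N than the other Wistar N arrays did. In Wistar N, *Hbb* was also high in replicate 2 (0.942, 11.15 against 10.48 to 10.52) and *C7* low in replicate 3 (0.860, 6.04 against 6.24 to 6.27).

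WAR S replicate 3 was high for 3 vessel genes, *Itm2a* (0.733, 10.38 against 9.78 to 9.94), *Abcb1a* (0.838, 8.74 against 8.31 to 8.38) and *Abcc9* (0.811, 7.72), a gene of pericytes. WAR S replicate 4 stood apart for *Actb* (0.940, 13.02), *Ndufs5* (0.715, 11.05), *Jun* (0.800, 8.61 against 8.79 to 8.83) and *Abcb8* (0.892, 8.08 against 8.28 to 8.30), and WAR S replicate 5 for *Gapdh* (0.786, 13.83). WAR N replicate 2 was low for *Alas2*, the heme synthesis gene of red blood cells (0.844, 6.27 against 6.85 to 6.95). Identical values among stimulated arrays make such ratios easier to reach there.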

How the results depend on the processing

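The counts depended on the fit more than the leading genes did. At the reported setting the mean strain effect called 1449 genes, 524 of the separated genes were also called, the interaction called 15, 23.4% of the genes called in the stimulated arrays were called in the naïve arrays, and 7.28% of those called in the naïve arrays were called in the stimulated arrays. With the replicate number as a block, which pairs arrays that share only a number, these were 142, 118, 0 and, for the last, 0, with no value for the fourth. With sample number set 1 alone they were 272 and 239, with 0 for the interaction and for the share read in the naïve arrays. That setting leaves fewer arrays in every group except Wistar S. With array weights 4547 genes were called, the interaction called 3353, and the share read in the naïve arrays was 47.1%. Without Wistar N replicates 2 to 4, chosen after seeing the data, 804 separated genes were called, the interaction called 531, and the shares were 2.92% and 17.4%. Under the replicate block 10 endothelial and 3 microglial markers were higher (4 and 1 without the genes known from earlier results), 4 astrocyte markers were lower, and 0 genes of complex I, of complexes II to V, of the ribosomal proteins, of complement and of pericytes were called. The interaction called 6 with the sample number set as a block, 24 with averaged probe sets, 9 with trend and robust and 42 after cyclic loess. All probe sets gave 827 separated and called, and a fold of at least 2 with an unadjusted p of at most 0.05 gave 41 genes in the mean strain effect.

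With each array left out in turn, the mean strain effect called from 340 (without Wistar S replicate 2) to 4264 genes (without Wistar N replicate 1), the separated and called genes ran from 277 to 1070 without the same arrays, the interaction from 0 to 2956, the share read in the naïve arrays from 1.46% to 57.1% and the share read in the stimulated arrays from 0.569% to 50%. For the 24 leading genes, 627 of 647 values kept direction and call, 20 lost the call, of which 9 with 1 set of sample numbers alone and 5 under the replicate block, and 0 changed direction. Small effects changed sign, in *Gata3* when 1 array was left out (−0.087 to 0.048, −0.01 at the reported setting) and with 1 set of sample numbers (0.0018), in *Actb* with that set (−0.024) and without Wistar N replicates 2 to 4 (−0.17), in *Gapdh* without those replicates (−0.054) and after cyclic loess (−0.0053), in *Snap25* without those replicates (−0.15) and in *Neurod6* when 1 array was left out (−0.057 without Wistar N replicate 4 to 0.0021 without Wistar N replicate 2). The cause of these changes was not tested.

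The 2 Wistar S arrays, the split among the Wistar N arrays and identical values in the stimulated set limit every comparison, and with different suppliers the effect of the strain and of the colony cannot be told apart.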
